A study of Homo sapiens with 14 samples.

Results

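The genes of the proteasome's own subunits were examined in A549 and H1792 cells, established human lung adenocarcinoma lines, after treatment with AMG900, a pan-aurora kinase inhibitor. The members were taken by name: every symbol in the 2 count tables made of PSMA, PSMB, PSMC or PSMD and a number, without PSMB8 and PSMB9. This gave 37 of the 26760 genes listed for A549 and 37 of the 26732 listed for H1792. Of these, 17 belong to the 20S core (7 alpha ring, 7 beta ring and 3 alternative subunits) and 20 to the 19S particle (6 base ATPases, 3 other base subunits, 8 lid subunits and 3 base assembly chaperones). The rule used symbols alone. A549 cells were represented by 4 DMSO and 4 AMG900 libraries and H1792 cells by 3 DMSO and 3 AMG900 libraries, with 0.1 µM AMG900 or DMSO for 48 h. The labels name no engineered allele in either line.

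The proteasome is the protease that degrades most ubiquitin-tagged proteins. Its 20S core is a barrel of stacked rings, in which the outer alpha rings gate entry and the inner beta rings hold the proteolytic sites, on PSMB5, PSMB6 and PSMB7. The 19S particle caps the barrel: its lid removes ubiquitin chains, and its base of ATPases unfolds the substrate and feeds it into the core. In many cells the subunits are transcribed together under NFE2L1 (NRF1), a transcription factor that binds antioxidant response elements in their promoters.

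Library totals spanned 4254644 to 18962883 counts in A549 and 42810734 to 79984064 in H1792. A549 DMSO replicate 1, the smallest library, stood apart from the other A549 DMSO libraries in several members, and values without it are given where they matter. It also stood apart over all genes. The mean chi-square per gene between A549 DMSO libraries was 13.8 to 16.6 with replicate 1 and 3.3 to 4.7 without it. In H1792 this value, which grows with depth, was highest between DMSO replicates 1 and 2, at 48.3. The epithelial keratins KRT8 and KRT18 were at 7097 counts or more in every library. The summed epithelial list of 5 genes lay at 4640 to 5654 CPM (counts scaled to a common library size) in A549 DMSO and at 5911 to 6637 with AMG900, without overlap, and at 689 to 816 and 796 to 812 in H1792. The part of this shift in the members' results was not tested. EPCAM was at 1 to 10 counts in A549 and at 143 to 281 in H1792, so this defining epithelial marker was nearly absent from A549. CDH1, of the same list, was at 67 to 830 counts in A549 and at only 25 to 71 in H1792. KRT19 was at 150 to 1333 and 282 to 783. The defining leukocyte genes PTPRC and CD3E reached at most 4 counts. The summed leukocyte list, of 3 genes and carried by CD68, lay at 58.3 to 85.5 CPM in A549 DMSO and at 144 to 165 with AMG900, and at 97.0 to 118 and 163 to 187 in H1792. The summed endothelial list of 3 genes lay at 0.232 to 6.14 CPM in A549 DMSO and 0.312 to 1.21 with AMG900, and at 3.90 to 16.9 and 7.87 to 8.99 in H1792. Its gene PECAM1 was at 0 to 9 counts in A549 and at 191 to 564 in H1792. In bulk RNA, fewer cells that express a gene and less RNA per cell cannot be told apart. Nothing in the labels says that replicates came from separate cultures, so p-values measure the spread between these libraries, which may be technical.

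Promoters are shown for 4 members on which the results turn: PSMA2 and PSMD11, which fell in both lines, and PSMB10 and PSMB4, whose response differed between the lines. Each is the RefSeq sequence of GRCh38.p14 from 250 bases before to 50 bases after the start of transcription, 5′ to 3′ on the gene's strand, in lower case. Capitals mark the antioxidant response element TGANNNNGC or the CCAAT box CCAAT, read on both strands. PSMA2 lies at chr7:42932125-42932424 on the minus strand, PSMD11 at chr17:32444260-32444559 on the plus strand, PSMB10 at chr16:67936801-67937100 on the minus strand and PSMB4 at chr1:151399323-151399622 on the plus strand.
PSMA2: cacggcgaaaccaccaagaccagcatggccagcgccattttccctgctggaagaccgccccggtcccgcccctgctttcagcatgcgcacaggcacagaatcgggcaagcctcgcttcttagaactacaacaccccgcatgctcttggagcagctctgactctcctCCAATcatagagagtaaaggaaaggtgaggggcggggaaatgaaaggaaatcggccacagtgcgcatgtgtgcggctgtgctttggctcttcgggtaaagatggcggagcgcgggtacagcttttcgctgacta
PSMD11: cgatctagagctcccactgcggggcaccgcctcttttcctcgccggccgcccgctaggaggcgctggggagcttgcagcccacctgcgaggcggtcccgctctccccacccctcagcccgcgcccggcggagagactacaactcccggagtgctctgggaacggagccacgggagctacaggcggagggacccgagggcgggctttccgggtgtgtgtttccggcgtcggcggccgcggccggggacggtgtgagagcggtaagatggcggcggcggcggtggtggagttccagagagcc
PSMB10: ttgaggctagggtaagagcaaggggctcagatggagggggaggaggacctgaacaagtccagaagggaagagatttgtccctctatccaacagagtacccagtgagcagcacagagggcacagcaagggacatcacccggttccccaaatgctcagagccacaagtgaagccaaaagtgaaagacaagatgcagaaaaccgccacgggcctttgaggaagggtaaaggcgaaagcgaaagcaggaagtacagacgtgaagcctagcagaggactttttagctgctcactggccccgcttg
PSMB4: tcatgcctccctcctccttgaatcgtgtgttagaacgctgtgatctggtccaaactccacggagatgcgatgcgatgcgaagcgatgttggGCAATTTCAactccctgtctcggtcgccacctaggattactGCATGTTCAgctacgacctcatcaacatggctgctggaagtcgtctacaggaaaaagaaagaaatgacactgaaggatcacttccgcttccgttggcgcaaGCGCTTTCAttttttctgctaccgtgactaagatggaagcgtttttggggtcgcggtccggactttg

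The PSMB4 promoter held the antioxidant response element at 3 places (GCAATTTCA, GCATGTTCA and GCGCTTTCA as read on the printed strand). The PSMA2 promoter held 1 CCAAT box. The PSMD11 and PSMB10 windows held neither. Promoters were given for 32 of the 37 members, with several starts for 5 of them, and none for PSMA7, PSMB1, PSMB6, PSMB7 and PSMD4. The antioxidant response element was in 21 of the 32 (65.6%), beside 47.1% of 27305 genes with promoters of the same length. The CCAAT box was in 17 (53.1%, beside 39.7%) and the heat shock element GAANNTTC in 0 (beside 8.21%). Among members that fell in either line 8 of 13 (61.5%) held the antioxidant response element, and among those that rose 6 of 7 (85.7%). No motif overlapped another in the printed sequences, and matches were not tested.

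The proteasome genes did not move as a block: some alpha ring and 19S genes fell with AMG900 while other beta ring and 19S genes rose. In A549, 6 of the 35 members tested fell and 3 rose. In H1792, 9 of 35 fell and 6 rose. Most changes were small, with 20 members in A549 and 24 in H1792 within 0.25 of no change on the log2 scale. The plot of log2 fold changes by role shows the subunits of each subcomplex side by side.

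**Figure D1:**
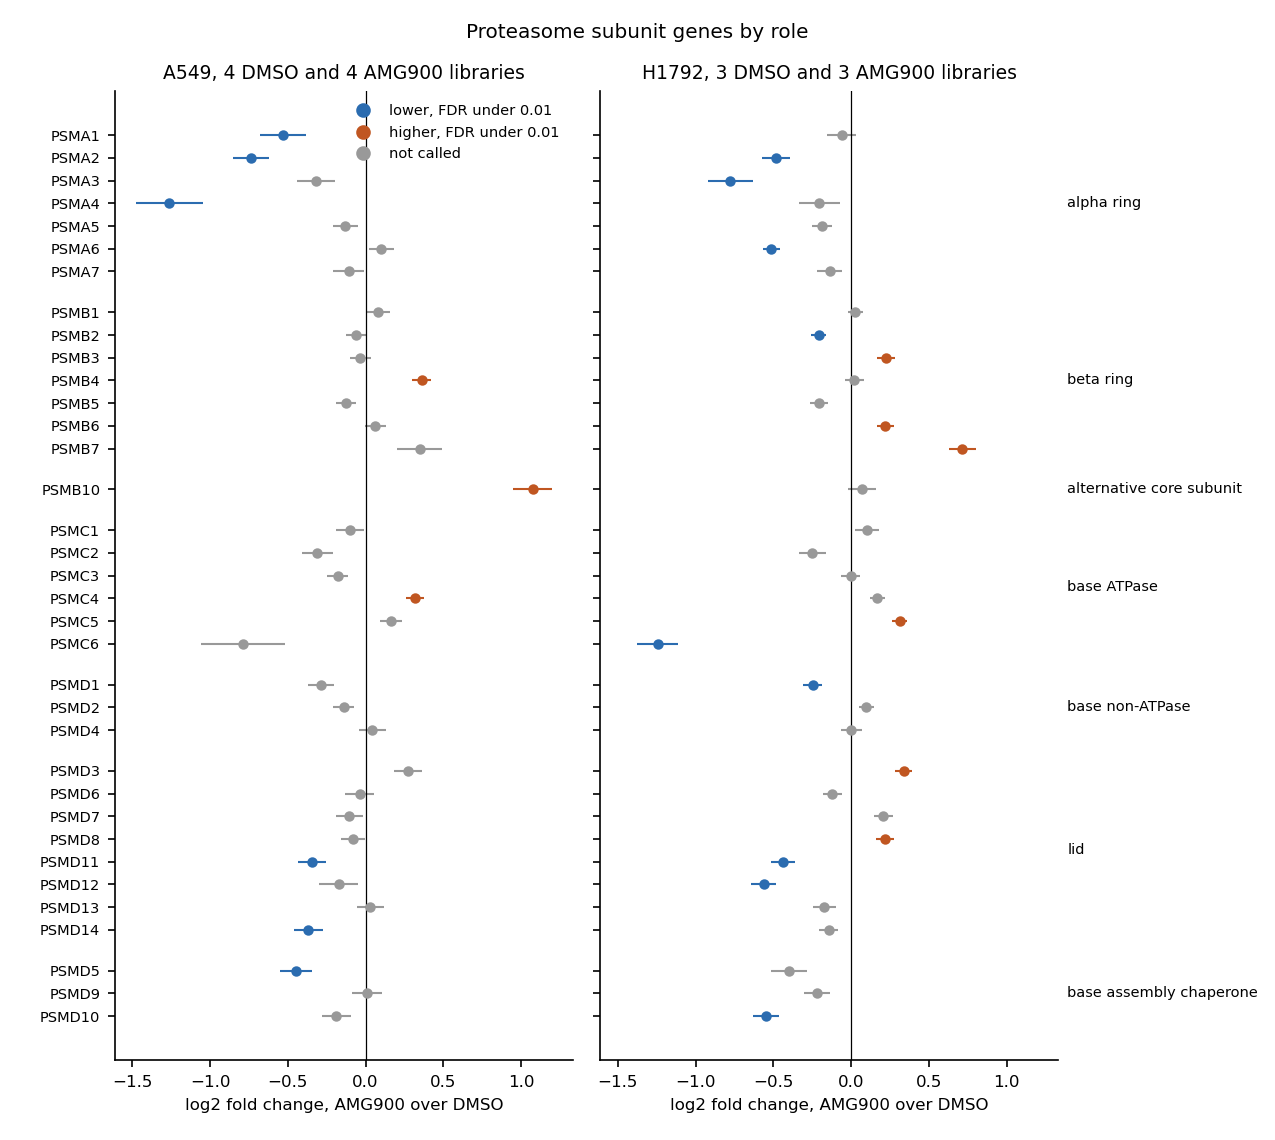
Log2 fold change of AMG900 over DMSO, with its SE, for the 35 tested members by role, in A549 (left) and H1792 (right); blue points fell and orange points rose at an FDR under 0.01. Of the 7 alpha ring genes, 6 in A549 and all 7 in H1792 lay below 0, beside 50.7% and 49.2% of all genes tested. With the GC correction described further on, PSMA3 (0.085), PSMA5 (0.34) and PSMA6 (0.33) lay above 0 in A549. So did PSMA1 (0.21), PSMA4 (0.044) and PSMA5 (0.28) in H1792.

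A gene was called when its quasi-likelihood p from edgeR, adjusted over all genes tested (Benjamini-Hochberg), was under 0.01. PSMA8 was at 0 counts in every library, and PSMB11 at 0 in every A549 library and at 0 to 3 counts in H1792, so neither was tested. Among all genes tested in A549, 17.8% fell and 17.2% rose, beside 17.1% and 8.57% of the tested members. In H1792, 18.8% of all genes fell and 16.2% rose, beside 25.7% and 17.1% of the members. The share that fell in A549 and the share that rose in H1792 were thus near those of all genes, the share that rose in A549 was smaller and the share that fell in H1792 larger. No list test was run, and nothing particular to the members is read from these shares. In A549, the members called lower were 3 of the 20S and 3 of the 19S genes and those called higher 2 and 1. In H1792, they were 4 and 5 for lower and 3 and 3 for higher. The members' median change (log2) was -0.10 in A549 (-0.06 for 20S, -0.12 for 19S) and -0.14 in H1792 (-0.14 for 20S, -0.13 for 19S), beside -0.01 and 0.01 for all genes. In A549, all AMG900 libraries lay below all DMSO libraries for 8 members and above them for 4, where 22% and 21.9% of all genes did so. In H1792, 14 lay below and 9 above, beside 29.6% and 30.1% of all genes. Without A549 DMSO replicate 1, 8 members fell and 4 rose in A549, beside 22.1% and 21.4% of all genes. Leaving out DMSO replicate 2 or AMG900 replicate 2, 3 or 4 in A549 left 3 members lower, and leaving out DMSO replicate 3 or AMG900 replicate 1 or 2 in H1792 left 3 higher. The count of lower members in H1792 ran from 6 to 12 when each library was left out in turn, so it depended on single libraries.

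The alpha ring carried the largest decreases of the core. In A549, 3 of its 7 genes fell and none rose, with a median log2 fold change of -0.32. In H1792, again 3 fell and none rose, with a median of -0.20. Of all genes, 17.8% fell and 17.2% rose in A549, and 18.8% and 16.2% in H1792. With 7 genes, nothing particular to the ring is read from these counts. The count of 0 that rose was also 0 by DESeq2 and at an unadjusted p under 0.05 in each line, but not with the GC correction described further on, which called PSMA5 (0.34, adjusted p = 0.00073) and PSMA6 (0.33, adjusted p = 0.0013) higher in A549 and PSMA5 (0.28, adjusted p = 0.0066) higher in H1792. PSMA4, at chr15:78832747-78844759 (GRCh37), had 70.5, 64.9, 35.4 and 37.8 CPM in the A549 DMSO libraries and 23.7, 18.7, 26.3 and 16.5 with AMG900. The groups did not overlap, although the DMSO libraries split into a higher and a lower pair. PSMA4 fell by 1.26 on the log2 scale (SE 0.22, adjusted p = 0.00024), from 52.2 ± 18.1 to 21.3 ± 4.50 CPM (SD, n = 4). In H1792, PSMA4 had 7.19, 9.40 and 8.94 CPM with DMSO and 8.05, 7.69 and 6.33 with AMG900, which overlapped, and the log2 fold change was -0.20 (SE 0.13, adjusted p = 0.22).

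PSMA2, at chr7:42956427-42971784 (GRCh37), was one of the pair of members that fell in both lines by edgeR. In A549 it had 46.1, 49.4, 41.5 and 42.7 CPM with DMSO and 30.1, 27.8, 28.6 and 21.3 with AMG900, a decrease of -0.73 on the log2 scale (SE 0.12, adjusted p = 0.00014). In H1792 it had 30.5, 38.4 and 35.5 CPM with DMSO and 24.5, 24.0 and 26.2 with AMG900, a decrease of -0.48 (SE 0.09, adjusted p = 0.0012). The groups were apart in each line. Without H1792 AMG900 replicate 1 the adjusted p in H1792 was 0.010008. The annotation places another gene on the same strand and lists 3 pseudogenes of PSMA2, so reads could be split between them, and this was not tested. Among all members, exons of 7 overlapped another gene on the same strand and those of 8 on the opposite strand. PSMA2, PSMC5, PSMD1 and PSMD11 were among those with an opposite-strand overlap. The strand of counting is not given, so the part of such reads was not tested.

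PSMA1 had 55.9, 38.1, 34.5 and 37.2 CPM in A549 DMSO and 28.7, 29.8, 31.1 and 22.6 with AMG900. All AMG900 libraries lay below the DMSO libraries, the first DMSO library standing highest, and PSMA1 fell by 0.53 (SE 0.15, adjusted p = 0.0083). It was not called without DMSO replicate 2 (adjusted p = 0.013) or without AMG900 replicate 1, 2, 3 or 4 (adjusted p from 0.013 to 0.032). With the GC correction its A549 log2 fold change was -0.18 (adjusted p = 0.29). In H1792 its log2 fold change was -0.06 (SE 0.09).

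PSMA3 was called lower in H1792 and not in A549, but the difference between the lines was not called (adjusted p = 0.052). It had 59.2, 56.9 and 58.9 CPM in H1792 DMSO and 27.9, 29.8 and 44.6 with AMG900, a log2 fold change of -0.78 (SE 0.14, adjusted p = 0.0014). The groups did not overlap, and the third AMG900 library lay nearer to DMSO than the others. In A549 the log2 fold change was -0.32 (SE 0.12, adjusted p = 0.039).

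PSMA6 separated the lines. In H1792 it had 93.9, 94.9 and 90.3 CPM with DMSO and 63.1, 64.1 and 68.4 with AMG900, a decrease of -0.51 on the log2 scale (SE 0.06, adjusted p = 5.2e-05). Its A549 libraries had 116, 102, 106 and 99.4 CPM with DMSO and 123, 113, 113 and 102 with AMG900, with overlapping groups and a log2 fold change of 0.10 (SE 0.08, adjusted p = 0.31). The annotation lists 4 pseudogenes of PSMA6 and a gene that overlaps it on the same strand.

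**Figure D2:**
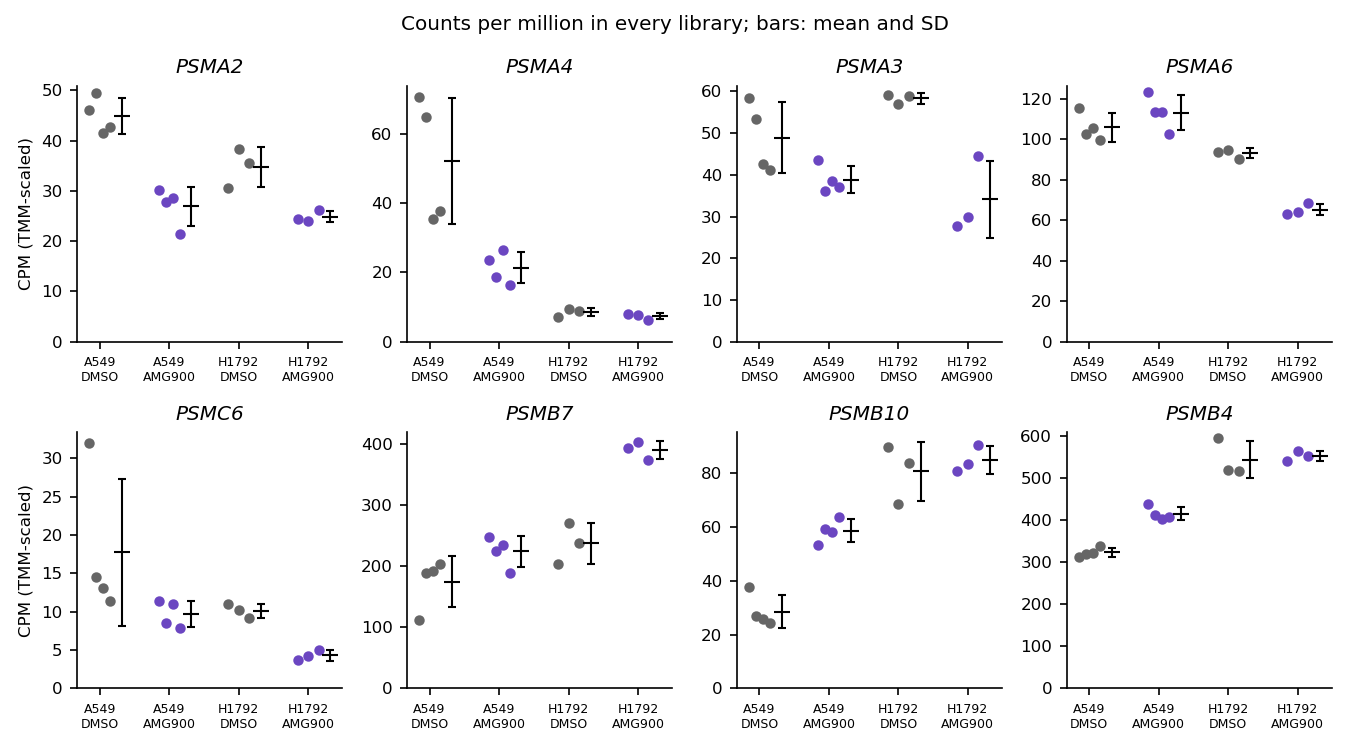
CPM, with library sizes scaled by TMM, in each DMSO (grey) and AMG900 (purple) library for 8 members; black bars are the mean and SD. PSMA2 lay lower with AMG900 in both lines, while PSMB10 was 2.10-fold higher with AMG900 in A549 and overlapped in H1792.

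In the beta ring, which holds the proteolytic sites, calls went both ways. In A549, 0 of its 7 genes fell (also 0 by DESeq2 and at an unadjusted p under 0.05) and 1 rose, and in H1792, 1 fell and 3 rose, beside 17.8% and 17.2% of all genes in A549 and 18.8% and 16.2% in H1792. With the GC correction, PSMB3 (-0.19, adjusted p = 0.0069) and PSMB5 (-0.27, adjusted p = 0.00072) were called lower in A549. The catalytic subunits did not move alike. PSMB7, which carries the trypsin-like site, had 204, 271 and 238 CPM in H1792 DMSO and 393, 403 and 375 with AMG900. Every AMG900 library exceeded every DMSO library, and PSMB7 rose by 0.72 on the log2 scale (SE 0.09, adjusted p = 0.00010). In A549 it had 112, 190, 193 and 204 CPM with DMSO and 248, 225, 235 and 189 with AMG900, which overlapped, and the log2 fold change was 0.35 (SE 0.14, adjusted p = 0.057). Without A549 DMSO replicate 1, the lowest of these, it was 0.19 (adjusted p = 0.024).

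PSMB6, of the caspase-like site, had 359, 335 and 337 CPM in H1792 DMSO and 414, 408 and 378 with AMG900, without overlap, and rose by 0.22 (SE 0.06, adjusted p = 0.0073). A549 libraries had 158, 157, 167 and 177 CPM with DMSO and 183, 169, 169 and 168 with AMG900, which overlapped, with a log2 fold change of 0.06 (SE 0.07). PSMB5, of the chymotrypsin-like site, had 214, 192 and 196 CPM in H1792 DMSO and 166, 176 and 180 with AMG900. These did not overlap, but its log2 fold change of -0.21 (SE 0.06, adjusted p = 0.014) missed the threshold. It was called lower by DESeq2 (-0.21, adjusted p = 0.0044), with scaling by total counts (-0.27, 0.0019), without a filter (-0.22, 0.0083) and with the GC correction (-0.36, 0.00011). In A549 PSMB5 had 196, 202, 220 and 215 CPM with DMSO and 197, 194, 185 and 188 with AMG900, with a log2 fold change of -0.13 (SE 0.07, adjusted p = 0.12).

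PSMB4, a structural beta subunit, had 313, 319, 322 and 339 CPM in A549 DMSO and 438, 413, 404 and 409 with AMG900. The groups were apart, and PSMB4 rose by 0.36 (SE 0.06, adjusted p = 0.00023). In H1792 it had 595, 521 and 518 CPM with DMSO and 540, 565 and 552 with AMG900, with overlapping groups and a log2 fold change of 0.02 (SE 0.06). PSMB3 had 295, 274 and 265 CPM in H1792 DMSO and 332, 330 and 311 with AMG900, without overlap, and rose by 0.22 (SE 0.06, adjusted p = 0.0077). PSMB2 fell in H1792 by 0.21 (SE 0.05, adjusted p = 0.0047). These small H1792 calls turned on single libraries. Leaving out DMSO replicate 3 or AMG900 replicate 1 or 2 ended the calls of PSMB2, PSMB3 and PSMB6 alike (adjusted p from 0.016 to 0.054), as did leaving out AMG900 replicate 3 for PSMB2 (0.025) and PSMB3 (0.014) and DMSO replicate 2 for PSMB6 (0.011). The GC correction put PSMB2 at -0.067 (adjusted p = 0.18), PSMB3 at 0.055 (0.29) and PSMB6 at 0.0022 (0.97) in H1792. PSMB5 was called without H1792 DMSO replicate 1 (0.0046) or 2 (0.0038).

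The alternative core subunits were of unequal level. PSMB10, the inducible subunit that takes the place of PSMB7 in the immunoproteasome, lies at chr16:67968409-67970767 (GRCh37). In A549 it had 37.6, 26.8, 25.7 and 24.2 CPM with DMSO and 53.4, 59.2, 58.2 and 63.7 with AMG900. All AMG900 libraries were higher, and PSMB10 rose by 1.07 on the log2 scale (SE 0.12, adjusted p = 7.3e-06), the largest increase among the members in either line. In H1792 it had 89.8, 68.6 and 84.0 CPM with DMSO and 80.7, 83.4 and 90.6 with AMG900, which overlapped, with a log2 fold change of 0.07 (SE 0.09). The partner inducible subunits PSMB8 and PSMB9 averaged at most 0.474 CPM in a group. The leukocyte list given above, carried by CD68, was higher with AMG900 in both lines while PTPRC and CD3E were at or near 0. The annotation has a gene overlapping PSMB10 on the same strand.

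Among the base ATPases, PSMC6 had the largest decrease. It had 10.98, 10.2 and 9.19 CPM in H1792 DMSO and 3.64, 4.23 and 5.00 with AMG900, from 212 to 718 counts per library. The groups lay far apart, and PSMC6 fell by 1.24 on the log2 scale (SE 0.13, adjusted p = 4.3e-05). The A549 libraries held 31.96, 14.6, 13.1 and 11.3 CPM with DMSO and 11.4, 8.56, 10.95 and 7.89 with AMG900, which overlapped, with a log2 fold change of -0.79 (SE 0.27, adjusted p = 0.025). Without A549 DMSO replicate 1, which stood at 31.96 CPM, this was -0.42 (adjusted p = 0.028).

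Other base ATPases rose. PSMC4 had 442, 412, 423 and 420 CPM in A549 DMSO and 551, 519, 513 and 531 with AMG900, and rose by 0.32 (SE 0.06, adjusted p = 0.00048) with the groups apart. In H1792 it had 369, 368 and 357 CPM with DMSO and 415, 408 and 407 with AMG900, also apart, but its log2 fold change of 0.17 (SE 0.05, adjusted p = 0.011) missed the threshold. PSMC5 had 112, 114 and 116 CPM in H1792 DMSO and 138, 143 and 144 with AMG900, and rose by 0.31 (SE 0.05, adjusted p = 0.00054). Of the base subunits without ATPase activity, PSMD1 fell in H1792 by 0.25 (SE 0.06, adjusted p = 0.0067). That call was lost without DMSO replicate 2 (0.010361) or 3 (0.026) or without AMG900 replicate 1 (0.042) or 2 (0.035). PSMD2 and PSMD4, a ubiquitin receptor, were called in neither line. Without A549 DMSO replicate 1, PSMD2 (-0.19, adjusted p = 0.0054) and PSMD1 (-0.23, adjusted p = 0.0071) were called lower in A549, as was PSMD2 with the GC correction (-0.29, adjusted p = 0.00067).

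In the lid, 2 of 8 genes fell and 0 rose in A549 (0 by DESeq2 and 1 at an unadjusted p under 0.05), and 2 fell and 2 rose in H1792. Beside these counts stand 17.8% lower and 17.2% higher of all genes in A549, and 18.8% and 16.2% in H1792. PSMD11, at chr17:30771397-30810337 (GRCh37), was the other member that fell in both lines by edgeR. It had 92.3, 117 and 106 CPM in H1792 DMSO and 78.1, 77.4 and 77.7 with AMG900, a decrease of -0.44 (SE 0.08, adjusted p = 0.0011) with no overlap. In A549 it had 185, 232, 232 and 226 CPM with DMSO and 193, 178, 170 and 150 with AMG900. Here the lowest DMSO library lay below the highest AMG900 library, and PSMD11 fell by 0.35 (SE 0.09, adjusted p = 0.0058). Without that DMSO library, replicate 1, the decrease was -0.42 (adjusted p = 1.2e-05). The A549 call was lost without DMSO replicate 2, 3 or 4 or AMG900 replicate 2, 3 or 4 (adjusted p from 0.015 to 0.022).

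PSMD12 had 21.1, 22.5 and 24.1 CPM in H1792 DMSO and 14.7, 14.95 and 16.1 with AMG900, and fell by 0.56 (SE 0.08, adjusted p = 0.00026). PSMD3 had 228, 238 and 238 CPM in H1792 DMSO and 313, 296 and 280 with AMG900, and rose by 0.34 (SE 0.06, adjusted p = 0.00059). Both were free of overlap. With the GC correction described further on, PSMD12 was at -0.058 (adjusted p = 0.52) and PSMD3 at 0.044 (adjusted p = 0.56), and neither was called. PSMD8 rose in H1792 by 0.22 (SE 0.06, adjusted p = 0.0099), just inside the threshold, and its call was lost without DMSO replicate 1 or 3 or any 1 of the AMG900 libraries (adjusted p from 0.010501 to 0.052). PSMD14, the deubiquitinase of the lid, fell in A549 by 0.37 (SE 0.09, adjusted p = 0.0048). That call was lost without DMSO replicate 2 or 3 or AMG900 replicate 2, 3 or 4 (adjusted p from 0.0115 to 0.017). It was also lost with the GC correction (-0.054, adjusted p = 0.60).

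The base assembly chaperones help the ATPase ring form and are not part of the finished particle. PSMD5 had 31.3, 29.8, 30.4 and 33.5 CPM in A549 DMSO and 24.0, 23.3, 24.1 and 20.6 with AMG900, without overlap, and fell by 0.45 (SE 0.10, adjusted p = 0.0025). Without DMSO replicate 4 its adjusted p was 0.012, and with the GC correction its log2 fold change was -0.064 (adjusted p = 0.61). PSMD10, also known as gankyrin, had 31.8, 31.95 and 33.7 CPM in H1792 DMSO and 20.3, 21.6 and 24.7 with AMG900, without overlap, and fell by 0.55 (SE 0.08, adjusted p = 0.00036). The A549 libraries had 44.2, 49.3, 43.9 and 47.9 CPM with DMSO and 44.5, 41.2, 40.9 and 36.6 with AMG900, with a log2 fold change of -0.19 (SE 0.09, adjusted p = 0.11). PSMD9 was called in neither line, except with the GC correction, which called it lower in H1792 (-0.33, adjusted p = 0.0037).

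Between the lines, 2 members (PSMA2 and PSMD11) fell in both by edgeR, against 5 by DESeq2 and 8 at an unadjusted p under 0.05 in each line. With the GC correction PSMD11, PSMB5 and PSMC3 fell in both. In edgeR 0 rose in both (1 by DESeq2, 4 at unadjusted p under 0.05 in each line, and PSMA5 with the GC correction). In neither line were 13 called. By edgeR without the GC correction no member was called in opposite directions, while with it PSMA6 and PSMB10 were called higher in A549 and lower in H1792. Without A549 DMSO replicate 1, PSMD1 also fell in both lines and PSMD3 (0.18 in A549, adjusted p = 0.0077) rose in both. Over the 35 members the log2 fold changes of the lines had a Spearman rho of 0.64 and a Pearson r of 0.54, and 27 had the same sign. These values are across genes, which are not independent replicates and share transcript features with each other. The interaction of line and treatment over the 14 libraries tested each difference. It called 3 members with a lower log2 fold change in H1792 and 0 with a higher one (2 by DESeq2 and 2 at an unadjusted p under 0.05). Of 14769 genes, 9.17% were called lower in H1792 and 5.37% higher. PSMA6 differed by -0.69 (SE 0.10, adjusted p = 3.6e-05), PSMB10 by -1.09 (SE 0.16, adjusted p = 6.4e-05) and PSMB4 by -0.42 (SE 0.09, adjusted p = 0.0019). The next were PSMD10 (-0.43, adjusted p = 0.016), PSMA4 (0.98, adjusted p = 0.019) and PSMC4 (-0.23, adjusted p = 0.035), which missed the threshold. PSMD10 was called without H1792 AMG900 replicate 3 (adjusted p = 0.0084), which left 5 members lower in H1792, and PSMA4 without A549 DMSO replicate 3 (0.0064) or 4 (0.0096). Without A549 DMSO replicate 1, 2 members were called higher in H1792. With the replicate number as a block PSMB4 had an adjusted p of 0.011. These differences were fitted with both lines scaled together. For every tested member they lay below the value from subtracting the fits of single lines. PSMD3, with 0.27 in A549 and 0.34 in H1792, was at -0.0081. The part of this scaling in the counts of lower and higher members was not tested.

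**Figure D3:**
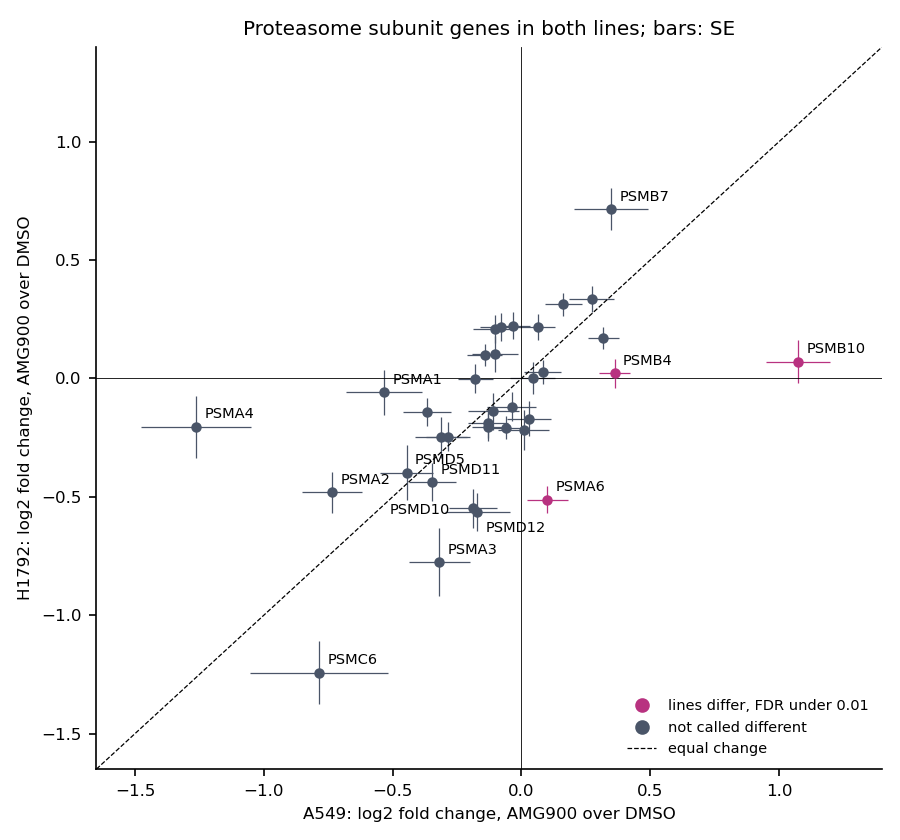
Log2 fold change with AMG900 in A549 (horizontal) and H1792 (vertical) for the 35 members, with SE bars; the dashed line marks equal change. The 3 members whose response differed between lines at an FDR under 0.01 (PSMA6, PSMB10 and PSMB4, in magenta) lie below it, and PSMA2 and PSMC6 lie in the lower left quadrant.

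Summed over all members, the sign of the difference between AMG900 and DMSO depended on the scaling. The smaller difference in each line lay within the SD of either group. For the 19S genes the sign did not change with the scaling in either line. In A549 all members together held 6041 ± 139 CPM of total counts with DMSO and 5744 ± 181 with AMG900 (SD, n = 4). In H1792 they held 6425 ± 119 with DMSO and 6383 ± 53.3 with AMG900 (SD, n = 3). With TMM-scaled library sizes the sums were 5890 ± 58.4 and 5902 ± 184 in A549 and 6284 ± 105 and 6530 ± 59.8 in H1792. On this scale the H1792 groups did not overlap (6182 to 6392 with DMSO, 6482 to 6597 with AMG900). The 20S genes held 2390 ± 39.7 and 2321 ± 63.4 CPM of total counts in A549 and 3075 ± 55.6 and 3018 ± 40.6 in H1792, and the 19S genes 3651 ± 106 and 3423 ± 120 in A549 and 3351 ± 101 and 3365 ± 17.4 in H1792. With TMM-scaled sizes the 20S sums were 2331 ± 32.3 and 2385 ± 64.8 in A549 and 3008 ± 99.95 and 3088 ± 38.4 in H1792, and the 19S sums 3560 ± 46.9 and 3517 ± 121 in A549 and 3276 ± 31.9 and 3443 ± 30.5 in H1792. The 19S sums in H1792 did not overlap on this scale (3247 to 3310 against 3408 to 3466). Abundant members weigh most in these sums. In H1792, PSMB7 went from 238 to 390 CPM and PSMD8 from 565 to 657, while 21 of the 35 members lay below 0. No p is given for these sums.

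**Figure D4:**
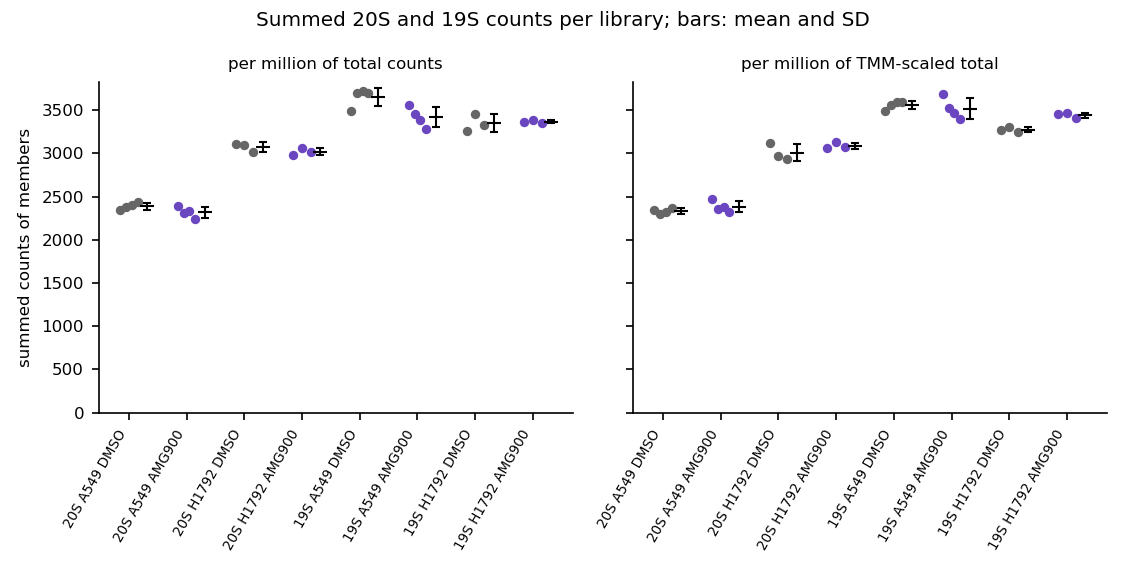
Summed counts of the 20S and 19S members, as CPM, in each DMSO (grey) and AMG900 (purple) library, scaled by total counts (left) and by TMM-scaled totals (right); black bars are the mean and SD. By total counts, H1792 held more 20S counts than A549 (3075 against 2390 CPM in DMSO) and fewer 19S counts (3351 against 3651).

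The levels of single subunits, as CPM per kilobase of coding length, spanned a wide range. In A549 DMSO the highest level was PSMB3 at 644 ± 47.9, followed by PSMA7 at 454 ± 78.3, PSMD8 at 440 ± 48.7 and PSMB4 at 408 ± 14.3, and the last 3 differed by less than the spread of PSMA7. The lowest were PSMC6 at 15.2 ± 8.20, PSMD12 at 20.4 ± 2.16 and PSMD5 at 20.7 ± 1.09 (SD, n = 4). PSMD12 and PSMD5 were within each other's spread. PSMC6 lay below their spreads, and its own wide SD held DMSO replicate 1 at 31.96 CPM (others 11.3 to 14.6, before the length scaling). In H1792 DMSO the highest was PSMB4 at 687 ± 55.0, followed by PSMD8 at 538 ± 33.1 and PSMB2 at 537 ± 13.003, and the lowest were PSMC6 at 8.66 ± 0.77 and PSMA4 at 10.9 ± 1.49 (SD, n = 3). The order depends on the length used. Per kilobase of the whole canonical transcript, the highest in A549 DMSO were PSMB3 at 519 ± 38.6, PSMB4 at 352 ± 12.3 and PSMA7 at 351 ± 60.5, and the lowest PSMD12 at 6.42 ± 0.68, PSMC6 at 8.20 ± 4.43 and PSMD5 at 9.24 ± 0.49. In H1792 DMSO they were PSMB4 at 593 ± 47.5 and PSMB6 at 417 ± 16.3, and PSMA4 at 1.94 ± 0.27 and PSMC6 at 4.67 ± 0.41, while PSMB2 was at 73.2 ± 1.77. Counts cover whole transcripts, and the transcript models behind the counting are not given in the sources used here, so neither order is firm.

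The direction of change followed the GC content of the transcript. Across the 35 members, the Spearman correlation of GC percent with log2 fold change was 0.66 in A549 and 0.75 in H1792, and over all genes with a GC value it was 0.50 and 0.48. Among the 11 members with at most 43% GC, 5 fell and 0 rose in each line, and among the 15 above 51%, 0 fell in either line, while 3 rose in A549 and 5 in H1792. Over all genes at most 43% GC, 29.9% fell and 3.23% rose in A549, and 37.6% and 3.63% in H1792, while above 51%, 8.49% and 31.1% did so in A549 and 6.71% and 27.4% in H1792. The bounds of 43% and 51% were chosen after the values were seen. PSMC6 had 36.4% GC, the lowest of the tested members, and PSMB10 had 61.7%, the highest. The part of GC in the members' changes was not tested other than by the correction that follows.

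With a GC correction, a spline in GC with 5 degrees of freedom, the Spearman correlation over members was -0.24 in A549 and -0.04 in H1792. Then 7 members fell and 4 rose in A549, and 9 fell and 4 rose in H1792, beside 18.7% and 13.8% of all genes in A549 and 23% and 14.5% in H1792. Of the earlier calls, 2 of 6 lower (PSMA4 and PSMD11) and 2 of 3 higher (PSMB10 and PSMB4) in A549 were called again, and in H1792 3 of 9 lower (PSMA6, PSMC6 and PSMD11) and 2 of 6 higher (PSMB7 and PSMC5). PSMD11 was thus lower in both lines with and without the correction. The corrected log2 fold change of PSMA4 in A549 was -0.92, that of PSMC6 in H1792 -0.67, that of PSMB10 in A549 0.66 and that of PSMB7 in H1792 0.65. PSMA2 moved to -0.31 (adjusted p = 0.014) in A549 and -0.10 (adjusted p = 0.18) in H1792, and was no longer called. The A549 calls of PSMA1 (-0.18), PSMD14 (-0.054), PSMD5 (-0.064) and PSMC4 (0.17) were also lost (adjusted p from 0.028 to 0.61). So were the H1792 calls of PSMA3 (-0.46), PSMB2 (-0.067), PSMD1 (-0.11), PSMD10 (-0.22), PSMD12 (-0.058), PSMB3 (0.055), PSMB6 (0.0022), PSMD3 (0.044) and PSMD8 (-0.056) (adjusted p from 0.017 to 0.97). The corrected calls of the lines also included members not called before: PSMA5 was higher in both lines, with a corrected log2 fold change of 0.34 in A549 and 0.28 in H1792, and PSMB5 and PSMC3 were lower in both, with -0.27 and -0.36 for PSMB5 and -0.43 and -0.23 for PSMC3.

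**Figure D5:**
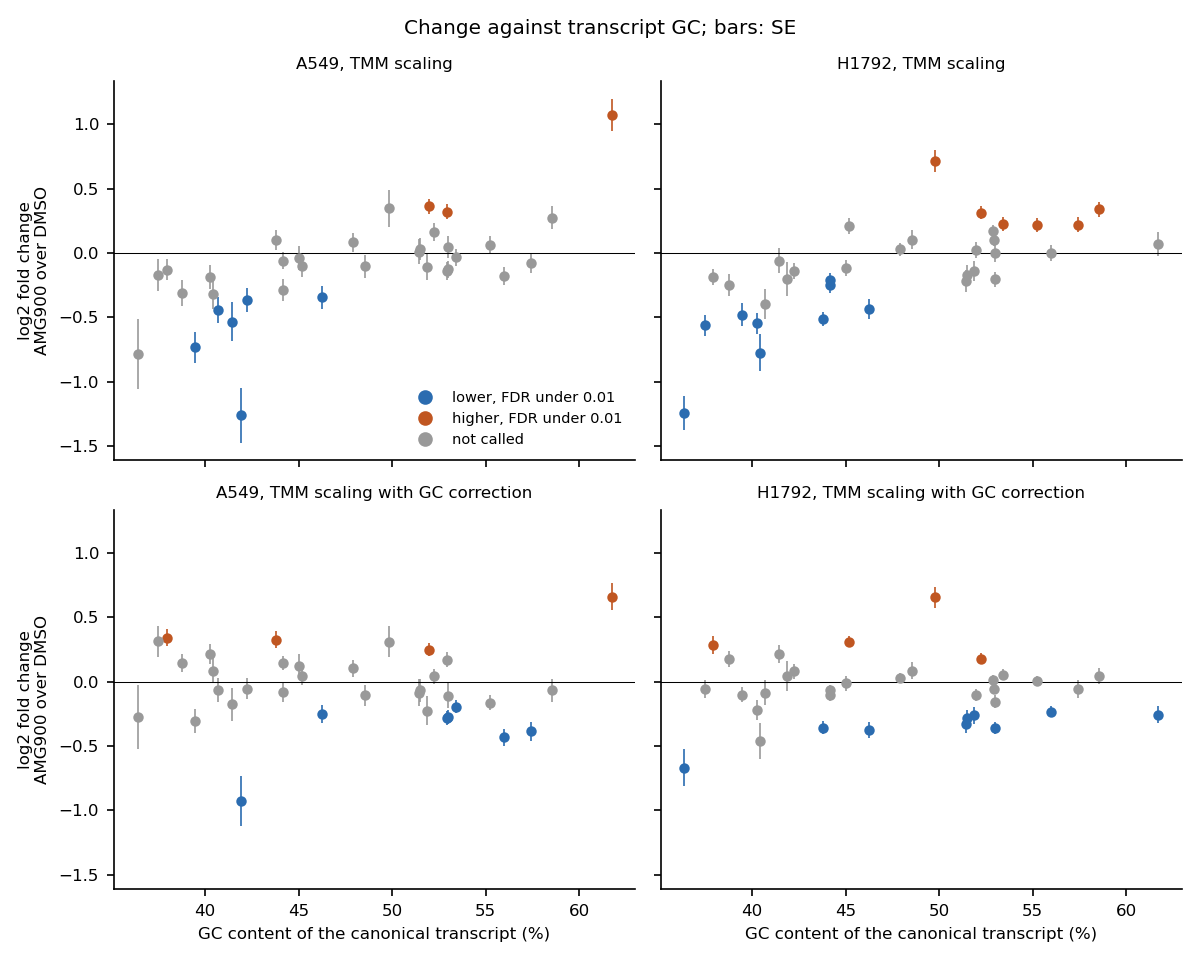
Log2 fold change of each member (AMG900 over DMSO, with SE) against the GC percent of its canonical transcript, without (top) and with (bottom) the GC correction, in A549 (left) and H1792 (right); blue and orange mark calls at an FDR under 0.01. Without correction the points rise from left to right (Spearman 0.66 and 0.75), and with it they do not (-0.24 and -0.04).

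Around the subunits, a companion list of 33 genes (other 19S components, activators, assembly factors, transcriptional regulators, ubiquitin genes, VCP and shuttle proteins) showed mixed directions too. In A549, 8 of 31 tested (25.8%) fell and 6 (19.4%) rose, beside 17.8% and 17.2% of all genes, and in H1792, 13 of 32 (40.6%) fell and 4 (12.5%) rose, beside 18.8% and 16.2%. The H1792 count of higher calls was 8 without DMSO replicate 1, and that of lower calls 7 without AMG900 replicate 1 or 2. NFE2L1 rose in A549 from 399 ± 39.8 to 586 ± 9.88 CPM (SD, n = 4), by 0.55 on the log2 scale (SE 0.07, adjusted p = 2.5e-05). In H1792 NFE2L1 was at 526 ± 1.28 and 519 ± 12.4 CPM (SD, n = 3), changing by -0.02 on the log2 scale (SE 0.05), and the interaction was called at -0.65 (SE 0.10, adjusted p = 7.8e-05). With the GC correction NFE2L1 was at 0.34 in A549 (adjusted p = 0.00032) and was called lower in H1792 (-0.23, adjusted p = 0.00078).

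The largest called changes of the companion list in A549 were in DDI2, the protease that activates NFE2L1, at -1.22 (SE 0.32, adjusted p = 0.0056), UBQLN1, a shuttle protein, at -1.02 (SE 0.07, adjusted p = 6.8e-08), and UCHL5, a deubiquitinase of the 19S particle, at -0.96 (SE 0.19, adjusted p = 0.00099). In H1792 they were in PSME3, a subunit of a nuclear proteasome activator, at -0.81 (SE 0.09, adjusted p = 6.3e-05), NGLY1, a deglycosylase that acts on NFE2L1, at -0.78 (SE 0.08, adjusted p = 4.3e-05), and UCHL5 at -0.73 (SE 0.08, adjusted p = 5.1e-05). The DDI2 call was lost without A549 DMSO replicate 2, 3 or 4 or AMG900 replicate 1, 2 or 4 (adjusted p from 0.011 to 0.021) and with the GC correction (-0.93, adjusted p = 0.023). The correction also ended the UCHL5 calls, at -0.44 in A549 (adjusted p = 0.059) and 0.0023 in H1792 (adjusted p = 0.98).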

How the data were processed

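Total RNA of A549 cells (4 DMSO, 4 AMG900 libraries) and H1792 cells (3 DMSO, 3 AMG900) was sequenced on a NextSeq 500. The submitters' protocol speaks of 3 replicates, the labels list 4 for A549. The deposited values are raw counts per gene, made by the authors; their processing notes name STAR, HTSeq, hg19 and GRCh37 without versions, and strand and annotation are not given in the sources used here. Total counts ran from 4254644 to 79984064, and the biological coefficient of variation, 12.8% in A549 and 9.60% in H1792, set the precision of well-counted genes. From the H1792 table, 28 date-named entries were left out.

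R 4.3.3 with edgeR 4.0.16 was used: filterByExpr, TMM, the quasi-likelihood test in each line and as an interaction over 14 libraries, Benjamini-Hochberg over all genes and an FDR under 0.01. An SE is the log2 fold change over the root of the F statistic. CPM of single genes used TMM-scaled library sizes, and CPM of the summed marker lists used total counts. DESeq2 1.42.0, other scalings and filters, a replicate block, a GC correction and leaving out each library were tried. GC and lengths came from GENCODE for GRCh37, promoters from RefSeq for GRCh38.p14. The tests were tested on simulated data.

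Members and lists were chosen with earlier results of these data known. Full values are given for the 4 largest decreases and increases called in each line, the catalytic subunits, the 6 smallest interaction p-values, the 3 largest companion changes in each line and NFE2L1; other members are given by counts or where a result turned on them. Same-numbered libraries correlated at -0.039 to 0.013 in A549 and -0.060 to 0.043 in H1792. Libraries of different numbers correlated at -0.20 to 0.16 in A549 and -0.054 to 0.11 in H1792. No pairing by number was seen, but so few pairs cannot exclude it.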

Additional observations from a re-analysis of the deposited data

Results flagged for a closer look

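Single libraries stood apart from their group in 8 of 70 groups of member and treatment tested in A549 (the gap to the nearest library over the group's range exceeded Dixon's 95% critical value for 4 libraries, which chance exceeds in about 1 group in 20). A549 DMSO replicate 1, the library with the fewest counts, held 4 of them: PSMB7 at 112 CPM (others 190 to 204), PSMC6 at 31.96 (11.3 to 14.6), PSMD11 at 185 (226 to 232) and PSMD4 at 285 (216 to 224). In the AMG900 libraries of A549, PSMB6 was at 183 in replicate 1 (168 to 169), PSMD7 at 117 in replicate 1 (93.5 to 96.2), PSMD12 at 30.1 in replicate 2 (22.4 to 23.0) and PSMD4 at 225 in replicate 3 (248 to 250). The groups of 3 libraries in H1792 were not tested in this way.

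The response to AMG900 differed between the lines, by the interaction test of edgeR, in PSMA6 (H1792 minus A549, -0.69 on the log2 scale), PSMB10 (-1.09) and PSMB4 (-0.42). None of these 3 genes was among those with a library that stood apart.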

How the results depend on the processing

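PSMC6 had 121 to 203 counts in the A549 libraries. Its log2 fold change there had an SE of 0.27, and of 0.16 without DMSO replicate 1. The part of depth in this was not tested. Of the tests of single named genes under other settings, 535 kept their direction and side of the threshold, 73 lost the call, 14 gained it and 4 reversed. The GC correction gave 16 of the losses and 3 of the reversals: PSMB6 in A549 at -0.16, PSMD8 in H1792 at -0.056 and UCHL5 in H1792 at 0.0023, while scaling by total counts put PSMB6 in A549 at -0.013. The cause was not tested.

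The members' median log2 fold changes by scaling on total counts were -0.18 (all), -0.14 (20S) and -0.20 (19S) in A549 and -0.20, -0.20 and -0.20 in H1792. With the GC correction they were 0.085 (20S) and -0.068 (19S) in A549 and -0.058 (all), -0.067 (20S) and -0.058 (19S) in H1792. At 10 counts or more in every library the 20S median in A549 was -0.028 and that of all members in H1792 -0.12, and without a filter the 20S median in H1792 was -0.11. Leaving out 1 library each time gave H1792 medians from -0.17 to -0.11 (all) and from -0.18 to -0.11 (20S). Summed counts with AMG900 minus DMSO were -298 in A549 and -41.9 in H1792 by total counts, and 11.7 and 246 by TMM-scaled totals.

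At an FDR of 0.05, 11 members were lower in A549, and the interaction called 7 lower and 1 higher in H1792. Requiring a change of 1.5-fold left 2 lower and 1 higher in each line, and 5 lower and 0 higher (A549) and 4 lower and 0 higher (H1792) in the companion list. Total counts left 3 members higher in H1792. The GC correction called 5 lower in the interaction and 5 lower companion genes in A549. Members called higher in H1792 by the interaction were 2 with DESeq2 and 1 without a filter. With libraries left out in turn, A549 had 3 to 8 lower members. H1792 had 6 to 12 lower and 3 to 7 higher members, and 7 to 13 lower and 3 to 8 higher companion genes. The interaction called 3 to 5 members lower and 0 to 2 higher.

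With a replicate block, 3 members were higher in H1792 in place of 6, and 8 lower in place of 9. In A549 the block gave 6 lower and 3 higher. Whether replicate numbers pair the libraries is not settled by so few of them. Nothing is therefore read from a call lost under the block.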
